A study of Mus musculus with 9 samples.

Results

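The microRNA genes are the genes on the array that encode the hairpins from which microRNAs are cut. They were taken as every gene whose symbol begins with Mir and a digit, or with let and a digit, among probe sets that name a single gene, with host transcripts left out and the brightest probe set kept for each gene. This gave 296 microRNA genes of 19937 named genes. The cells were mouse CD4+ T cells of 3 groups with 3 arrays each, labelled as biological replicates, and the strain and any pooling of animals are not given. The chronic Th2 group was CD4+ CD69+ ST2+ cells of the lung at day 104, after 3 intraperitoneal injections of 10 µg ovalbumin (OVA) with 1.5 mg aluminium hydroxide on days 1, 14 and 21 and 12 weeks of 1% OVA aerosol, given 2 times a week. The acute Th2 group was CD4+ CD69+ ST2+ cells of the lung at day 29, after the same injections and 3 days of aerosol. The naive group was antigen-naive CD4+ CD44- cells from the spleens of sham-treated mice at day 29. By protocol, cells of all 3 groups were stimulated through CD3 and CD28 for 8 h after the sort. Naive array 1 nevertheless lacked the high Il2 of the other arrays, as described below. Organ, sort markers and treatment change together between naive and Th2 cells. The day differs as well, being 104 for chronic Th2 cells and 29 for the others, so time and length of challenge cannot be told apart.

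A microRNA gene is transcribed as a long primary transcript, often inside an intron of a protein gene. The nuclear enzyme Drosha with its partner Dgcr8 cuts out a hairpin, Exportin 5 carries it to the cytoplasm, Dicer trims it to the mature strand, and an Argonaute protein uses that strand to find messenger RNAs, mostly by pairing with its seed at bases 2 to 8. In T cells, miR-155 is induced by activation and supports helper T cell responses, the miR-17 to miR-92 cluster supports proliferation and survival, and miR-142 is abundant in blood cells. The array probes read RNA copied from the hairpin's locus. Primary transcript, host intron and hairpin cannot be told apart in these values, and they do not measure the mature microRNA.

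The mature strands of the genes on which the results turn are shown in lower case from 5′ to 3′, with the seed in capitals, from RefSeq (GRCm38.p6). The first 6 belong to genes that passed the test between groups, miR-680 being the product of all 3 Mir680 genes. The next 6 belong to Mir155, Mir142, Mir18 and Mir15a, which set 1 naive array apart, to Mir17, a cluster neighbour of Mir18, and to Mir15b, a seed relative of Mir15a, and the last 4 to genes inside Clcn5.
mmu-miR-7a-5p: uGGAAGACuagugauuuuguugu
mmu-miR-7b-5p: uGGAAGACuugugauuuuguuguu
mmu-miR-31-5p: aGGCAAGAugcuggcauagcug
mmu-miR-505-3p: cGUCAACAcuugcugguuuucu
mmu-miR-701-5p: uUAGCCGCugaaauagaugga
mmu-miR-680: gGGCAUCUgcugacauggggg
mmu-miR-155-5p: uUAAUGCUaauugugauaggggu
mmu-miR-142a-3p: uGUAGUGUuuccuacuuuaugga
mmu-miR-18a-5p: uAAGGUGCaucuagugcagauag
mmu-miR-17-5p: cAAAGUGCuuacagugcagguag
mmu-miR-15a-5p: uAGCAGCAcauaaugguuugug
mmu-miR-15b-5p: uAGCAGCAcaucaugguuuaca
mmu-miR-188-5p: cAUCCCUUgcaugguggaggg
mmu-miR-362-5p: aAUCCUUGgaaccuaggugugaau
mmu-miR-500-5p: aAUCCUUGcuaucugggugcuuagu
mmu-miR-501-5p: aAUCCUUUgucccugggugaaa
In these strands miR-7a and miR-7b share the seed GGAAGAC, miR-15a and miR-15b share AGCAGCA, and miR-362 and miR-500 share AUCCUUG. Over the 270 microRNA genes with a mature sequence there were 390 seeds, of which 67 occurred in more than 1 gene. On GRCm38.p6, mature miR-7a-5p of Mir7-1 lies at chr13:58392841-58392863 on the minus strand, within the span of Hnrnpk. Mature miR-31-5p lies at chr4:88910614-88910635 on the minus strand, and miR-505-3p at chrX:60394416-60394437 on the minus strand. Mature miR-701-5p lies at chr5:111004170-111004190 on the plus strand, within the span of Ttc28, and miR-155-5p lies at chr16:84714143-84714165 on the plus strand.

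The arrays carry no detection call, so the values of 1015 olfactory receptor genes, whose known place of work is the nose, served as a measure of background. A value was read as above background when it exceeded 6.53, the 95th percentile of the olfactory receptor genes' mean log2 values over the 9 arrays. The olfactory receptor median was higher on the chronic Th2 arrays (5.67, 5.51 and 5.15) than on the acute Th2 arrays (5.21, 4.98 and 5.004) or the naive arrays (5.06, 4.94 and 5.10), and only chronic Th2 array 3 lay among the values of the other groups. Naive array 1 stood apart in another way. Il2, a cytokine gene switched on by T cell stimulation, was at 5.07 on it, against 11.33 and 11.27 on the other naive arrays, 9.95, 8.95 and 11.70 on the chronic Th2 arrays, and 10.94, 12.01 and 11.69 on the acute Th2 arrays. Of the sort markers, Cd3e and Cd4 were between 9.49 and 12.22 on every array, and Il1rl1, which encodes ST2, was not analysed here. Of the 11 measured markers of other cell types, 8 stayed below background in every group, among them Lyz2, Epcam, Sftpc and Cdh5, while Siglecf, Pecam1 and Col1a1 lay above it. Cd79a, a B cell gene among the 8, was lower in chronic Th2 cells than in naive cells (-0.61, limma adjusted p = 0.0459), and its part in any result was not tested. In RNA of mixed cells, fewer cells of a type and less RNA per cell cannot be told apart.

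Most microRNA genes were not seen above background. By group mean, 90 of 296 lay above it in chronic Th2 cells, 78 in acute Th2 cells and 78 in naive cells. In all, 94 lay above it in at least 1 group, 74 in all 3 groups and 202, or 68.2%, in none, compared with 46.9% of all named genes in none. The larger chronic Th2 count went with the higher olfactory receptor level of that group: set against the 95th percentile of each array's own olfactory receptor genes, 51, 70 and 83 microRNA genes lay above on the chronic Th2 arrays, 74, 85 and 86 on the acute Th2 arrays, and 82, 94 and 83 on the naive arrays. The median microRNA gene was at 5.42, 5.44 and 5.32 on the chronic Th2 arrays, 5.30, 5.21 and 5.25 on the acute Th2 arrays, and 5.27, 5.39 and 5.35 on the naive arrays. These medians lie close together beside the span of single genes, whose means over the 9 arrays ran from 2.503 to 9.743.

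**Figure D1:**
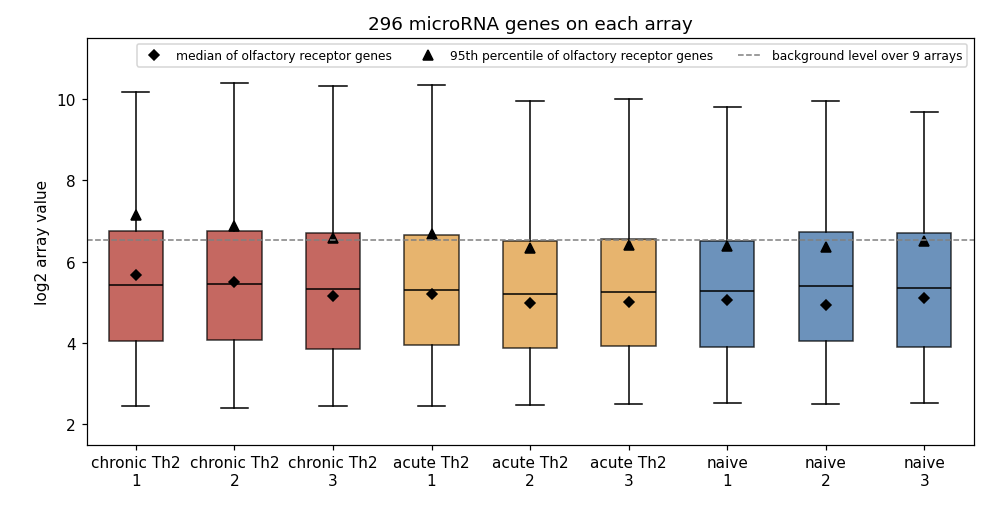
Log2 array values of the 296 microRNA genes on each of the 9 arrays, as boxes from the lower to the upper quartile with the median as a line and whiskers to the farthest value within 1.5 box lengths. Diamonds and triangles mark the median and the 95th percentile of 1015 olfactory receptor genes on the same array, and the dashed line is the background level of 6.53; the diamonds and triangles are highest on chronic Th2 arrays 1 and 2.

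The 8 microRNA genes with the highest mean over the 9 arrays were Mir692-1 (9.74), Mir680-2 (9.66), Mir155 (9.56), Mir346 (9.44), Mir598 (9.33), Mir667 (9.19), Mir7-1 (8.91) and Mir680-3 (8.89). Only 18 microRNA genes had a mean above 8. These are values of different probe sets, so their order is not an order of RNA amounts. Mir155 and Mir142 were the brightest of the 49 measured genes on a list of microRNA genes known in T cells, of which 21 lay above background in at least 1 group. The others of the 21 were Mir210, Mir181d, Mir15a, Mir212, Mir150, Mir181c, Mir27a, Mir326, Mir24-2, Mir99b, Mir30e, Mir342, Mir23a, Mir128-1, Mir26b, Mir191, Mir30d, Mir125a and Mir31. Mir146, the file's name for the gene of miR-146a, a feedback inhibitor of NF-kappaB signalling, stayed at 3.13 to 4.83 on the 9 arrays, and Mir181a-1, whose product tunes T cell receptor sensitivity, at 3.35 to 4.04. Both were below background on all arrays, although their products are well known in T cells. Mir150, whose product is abundant in resting lymphocytes, averaged 7.45 ± 0.12 in chronic Th2 cells, 7.30 ± 0.09 in acute Th2 cells and 7.39 ± 0.21 in naive cells (SD, n = 3 each).

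Genes of microRNAs that belong to other tissues gave a view of what the background holds. Of 15 measured genes for myeloid, endothelial, erythroid, smooth muscle and epithelial microRNAs, 2 lay above background, Mir143 of smooth muscle (mean 6.998 over the 9 arrays) and Mir200a of epithelium (6.73). Mir126a of endothelium was at 2.82, and Mir451a and Mir144 of red cells at 3.46 and 2.58. Of 27 measured genes for muscle, liver, brain and pancreas microRNAs, 7 lay above it, led by Mir383 (7.69) and Mir211 (7.34). Values above 6.53 were therefore also found for microRNA genes that belong to tissues not sorted here.

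Level followed the base composition of the hairpin. A RefSeq hairpin was found for 258 of the 296 genes (87.2%), with 28.4% to 69.2% G and C bases and a median of 47.3%. Across these 258 genes Pearson's r between G and C content and the mean array value was 0.71 and Spearman's rho 0.73, a description only, since the genes share the same 9 arrays and the same probe chemistry. In the 86 hairpins poorest in G and C the median value was 3.63 and 5 genes lay above background. Those 5 were Mir155 (9.56, 43.1% G and C), Mir7-1 (8.91, 41.7%), Mir142 (8.53, 42.2%), Mir18 (8.16, 43.8%) and Mir19b-1 (6.74, 43.7%). Mir155 and Mir142 are on the list of genes known in T cells, Mir18 and Mir19b-1 belong to the Mir17 cluster, and Mir7-1 differed between groups. Other genes whose products are known in T cells lay below background in the same 86, among them Mir146 (3.83, 40.0%) and Mir181a-1 (3.62, 42.5%). Whether T cell genes were more frequent among the 5 than among the 86 was not tested. In the middle 86 the median was 5.14 with 20 above background, and in the 86 richest it was 6.63 with 51 above background. The differences between groups followed composition less, with a Spearman's rho of 0.21 for chronic Th2 minus naive, 0.00 for acute Th2 minus naive and 0.26 for chronic Th2 minus acute Th2.

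**Figure D2:**
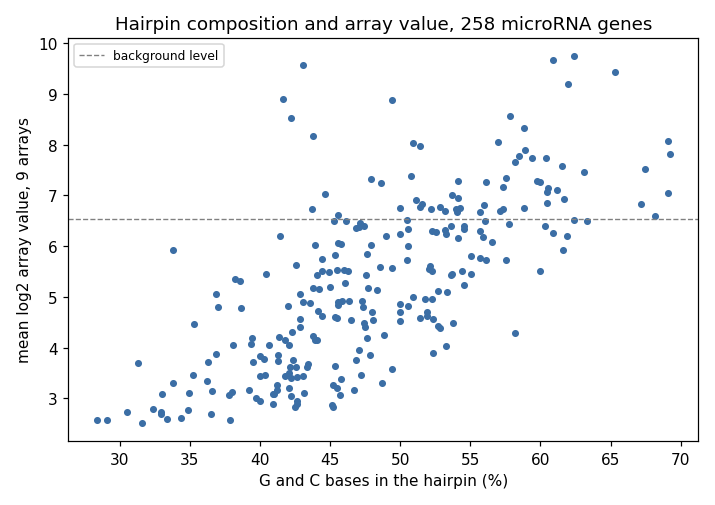
Each point is 1 of 258 microRNA genes, with the percentage of G and C bases in its RefSeq hairpin on the x axis and its mean log2 array value over the 9 arrays on the y axis. The dashed line is the background level of 6.53, and the points climb with G and C content, from a median of 3.63 in the poorest 86 hairpins to 6.63 in the richest; the points far above the rest at 41.7% to 43.8% are Mir155, Mir7-1, Mir142 and Mir18.

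In the 3 seed families described next, values lay on both sides of the background level, each value being that of its own probe set. The 9 genes with the let-7 seed ran from 3.63 (Mirlet7f-2) to 7.27 (Mirlet7i), with 3 above background, and let-7 products restrain proliferation in many cell types. The 6 genes with the miR-181 seed ran from 3.62 (Mir181a-1) to 7.97 (Mir181d). The 6 genes with the miR-15 and miR-16 seed, whose products restrain cell cycle and survival genes such as Bcl2, ran from 4.05 (Mir15b) to 7.95 (Mir15a). None of these 21 genes passed the test in any comparison. Of 47 clusters of microRNA genes with gaps of at most 10 kb, holding 147 genes, the largest was the imprinted one of 30 genes with Mir379 and Mir667, in which values ran from 2.57 to 9.19 and 5 genes lay above background. The 3 genes of the Mir25, Mir93 and Mir106b cluster, in the cell cycle gene Mcm7, lay between 6.68 and 7.47. The 3 of the Mir23a, Mir27a and Mir24-2 cluster, whose products limit Th2 cytokine output in mouse T cells, lay between 6.81 and 7.28.

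Acute Th2 cells against naive cells asked which microRNA genes differ once Th2 cells have reached the inflamed lung. Mir7-1 and Mir505 were lower and Mir31 was higher in acute Th2 cells, and no other microRNA gene passed. The test was limma over all 19937 genes, and a gene was called at a Benjamini-Hochberg adjusted p below 0.05. The 3 calls are 1.01% of microRNA genes, against 5.87% of all genes called in this comparison. Of all genes 3.67% were called higher and 2.2% lower. The median difference was -0.05 over microRNA genes and -0.03 over all genes. At an unadjusted p below 0.05 there were 21 microRNA genes (7.09%), 2 higher and 19 lower, against 16.3% of all genes, 8.01% higher and 8.28% lower. The arrays of the groups did not overlap for 30 microRNA genes, 5 higher and 25 lower, which is 10.1% of them, against 19.7% of all genes, 8.8% higher and 10.9% lower.

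Mir7-1, a source of miR-7a, which is best known from brain and endocrine pancreas, was at 9.08, 9.11 and 8.75 on the chronic Th2 arrays, 8.22, 8.50 and 8.49 on the acute Th2 arrays, and 9.38, 9.14 and 9.49 on the naive arrays. The acute Th2 arrays lay below all others, and the chronic Th2 arrays lay between them and the naive arrays with no overlap on either side. In acute Th2 cells Mir7-1 fell by 0.94 on the log2 scale against naive cells (SE 0.14, limma adjusted p = 0.00502). The difference of chronic Th2 from naive was -0.36 (adjusted p = 0.152), and that of chronic Th2 from acute Th2 was 0.58 (adjusted p = 0.322). It was the 1 microRNA gene of the 3 called in the acute comparison under all 20 alternatives tried, with adjusted p-values from 0.00027 to 0.0225. Hnrnpk, the RNA-binding protein gene that holds Mir7-1, was at 11.48, 11.57 and 11.41 on the chronic Th2 arrays, 11.37, 11.49 and 11.43 on the acute Th2 arrays, and 11.002, 11.83 and 11.42 on the naive arrays. Its groups overlapped and its acute Th2 minus naive difference was 0.01 (SE 0.18, adjusted p = 0.989). Of the other miR-7 genes, Mir7-2, with the same mature strand, differed by -0.04 (adjusted p = 0.916) and Mir7b by 0.09 (adjusted p = 0.868).

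Mir505 was at 8.87, 8.88 and 8.03 on the chronic Th2 arrays, 8.26, 7.98 and 7.99 on the acute Th2 arrays, and 10.68, 9.28 and 9.29 on the naive arrays. All 6 Th2 arrays lay below all 3 naive arrays, and naive array 1 was highest. Mir505 fell by 1.67 in acute Th2 cells (SE 0.38, limma adjusted p = 0.0381), and its chronic Th2 minus naive difference was -1.15 (adjusted p = 0.107). Without naive array 1 the acute Th2 minus naive difference was -1.21 (adjusted p = 0.0106). The call was absent when any 1 acute Th2 array was left out, and likewise without chronic Th2 array 1 or 2, which enter through the shared estimate of spread.

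Mir31, whose product acts on the Foxp3 transcript in human T cells, was at 5.90, 6.29 and 6.30 on the chronic Th2 arrays, 6.72, 6.69 and 6.83 on the acute Th2 arrays, and 5.52, 5.61 and 6.24 on the naive arrays. The acute Th2 arrays lay above all others and were the only ones past the background level. Mir31 rose by 0.96 in acute Th2 cells (SE 0.19, limma adjusted p = 0.0209). In chronic Th2 cells it differed from naive by 0.37 (adjusted p = 0.252), with overlapping arrays, and from acute Th2 by -0.58 (adjusted p = 0.322), the largest downward difference among microRNA genes in that comparison. The acute call was absent without any 1 acute Th2 array or without naive array 2.

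The number of calls rested on single arrays. Leaving out any 1 acute Th2 array left 1 call in acute Th2 minus naive. Without naive array 1 there were 17, or 5.74% of microRNA genes, 3 higher and 14 lower, against 12.2% of all genes in the same fit. The genes called higher were Mir29a (1.12), Mir31 (0.82) and Mir361 (0.48), and miR-29a is known to restrain interferon-gamma output in mouse T cells. Among those called lower were Mir1839 (-1.72), Mir15b (-1.61), Mir142 (-1.26), Mir505 (-1.21), Mir363 (-0.99), Mir7-1 (-0.91) and Mirlet7d (-0.61), with adjusted p-values of 0.00533 to 0.045 in limma. Mir29a, Mir361, Mir15b, Mir1839 and Mir363 have group means below background in every group. With all 9 arrays, Mir155 (1.16, adjusted p = 0.596), Mir29a (1.03, adjusted p = 0.0697), Mir680-1 (0.92) and Mir680-2 (0.68) were among the 5 largest upward differences, and Mir701 (-1.36, adjusted p = 0.0515), Mir568 (-1.27), Mir15b (-1.20) and Mir1839 (-0.94) among the 5 largest downward ones, without passing.

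**Figure D3:**
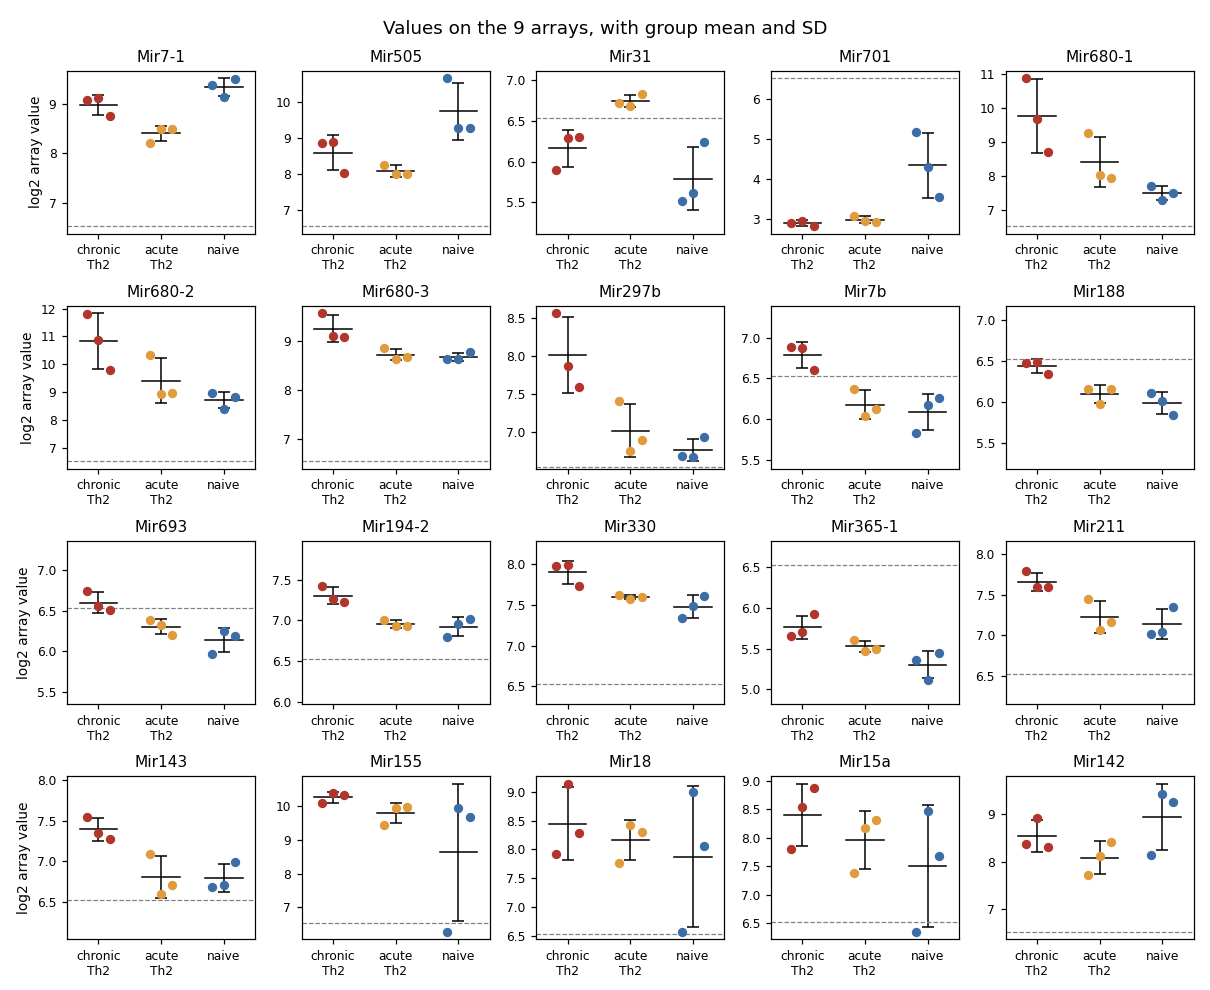
Log2 array values of 20 microRNA genes: the 16 called in any comparison, then Mir155, Mir18, Mir15a and Mir142. Points are single arrays in the order of their replicate number, lines and bars are the mean and SD of 3 arrays, and dashed lines mark the background level of 6.53 where it falls in a panel. Each panel has its own y axis of at least 2 units; naive array 1 is the low point of Mir155 (6.28), and the chronic Th2 points of Mir680-1 (8.71 to 10.87) and Mir680-2 (9.81 to 11.81) are widely spread.

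The genes that set naive array 1 apart included those known to be induced by T cell activation. Mir155 was at 10.08, 10.39 and 10.32 on the chronic Th2 arrays, 9.44, 9.95 and 9.99 on the acute Th2 arrays, and 6.28, 9.95 and 9.67 on the naive arrays. Apart from naive array 1 the 3 groups lay within 1 log2 unit of each other. Its chronic Th2 minus naive difference was 1.63 (SE 0.82, limma adjusted p = 0.244) with all arrays and 0.46 (adjusted p = 0.121) without naive array 1, and its acute Th2 minus naive difference was 1.16 and, without naive array 1, -0.01. On naive array 1, 7 of the 296 microRNA genes were over 1 log2 unit below both other naive arrays, or 2.36%, compared with 3.38% of all genes, and 3 were over 1 unit above both, or 1.01%, compared with 3.07% of all genes.

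The 7 low genes on naive array 1 were Mir155, Mir1839, Mir19a, Mir18, Mir15a, Mir142 and Mir181b-1, and the 3 high ones were Mir568, Mir505 and Mir687. Mir18, of the cluster around Mir17, was at 7.92, 9.14 and 8.29 on the chronic Th2 arrays, 7.77, 8.43 and 8.30 on the acute Th2 arrays, and 6.57, 9.003 and 8.05 on the naive arrays. Its cluster's host transcript Mir17hg had 6.86, 7.75 and 7.38 on the chronic Th2 arrays, 6.90, 7.62 and 7.38 on the acute Th2 arrays, and 6.27, 7.92 and 6.9996 on the naive arrays. In every group the first array had the lowest value of both Mir18 and Mir17hg and the second the highest. Mir17 itself was at 6.503, 7.07 and 6.56 on the chronic Th2 arrays, 5.89, 6.78 and 6.48 on the acute Th2 arrays, and 5.76, 6.94 and 6.43 on the naive arrays, in the same order within each group. Of the 13 measured genes of that cluster and its paralogs, 6 lay above background in at least 1 group (Mir18, Mir25, Mir106b, Mir19b-1, Mir93 and Mir17), none was called in any comparison, and their median difference was 0.09 for chronic Th2 minus naive and -0.10 for acute Th2 minus naive.

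Mir15a, in the same seed family as Mir15b, was at 7.81, 8.53 and 8.87 on the chronic Th2 arrays, 7.38, 8.18 and 8.31 on the acute Th2 arrays, and 6.36, 8.46 and 7.68 on the naive arrays. Its groups overlapped. Mir142 was at 8.37, 8.93 and 8.32 on the chronic Th2 arrays, 7.73, 8.13 and 8.42 on the acute Th2 arrays, and 8.15, 9.44 and 9.27 on the naive arrays. Without naive array 1 it was called lower in both groups, by -0.81 in chronic Th2 cells (limma adjusted p = 0.0409) and by -1.26 in acute Th2 cells (adjusted p = 0.00718), while with all arrays the differences were -0.41 (adjusted p = 0.46) and -0.86 (adjusted p = 0.25). Low Il2 moved with these genes on naive array 1, and its part in the result was not tested.

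Chronic Th2 cells against naive cells asked which microRNA genes differ after 12 weeks of challenge, with the same 3 naive arrays as before. Higher in chronic Th2 cells were the 3 Mir680 genes, Mir297b, Mir7b, Mir143, Mir211, Mir693, Mir365-1, Mir188, Mir330 and Mir194-2, and Mir701 was lower. These 13 calls by limma are 4.39% of microRNA genes, against 7.88% of all genes called in this comparison. In the upward direction it was 12 of the 296, against 734 of all 19937 genes (3.68%) called higher. In the downward direction it was 1 of the 296, against 837 of all 19937 genes (4.2%) called lower. The median difference was 0.06 over microRNA genes and 0.04 over all genes. At an unadjusted p below 0.05 there were 58 microRNA genes (19.6%), 42 higher and 16 lower, against 25.6% of all genes, 12.8% in each direction. The arrays did not overlap for 68, 47 higher and 21 lower, which is 23.0% of them, against 27.9% of all genes, 15.6% higher and 12.3% lower.

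The olfactory receptor genes moved upward in the same comparison. Their median difference was 0.34, with 40 of 1015 called higher and none called lower (3.94%), and 457 of the 458 with an unadjusted p below 0.05 were higher. Of the 12 microRNA genes called higher, 9 had a difference inside the range from the 5th to the 95th percentile of the olfactory receptor genes, 0.02 to 0.76, and 3 lay above it: Mir680-1, Mir680-2 and Mir297b. Of all 296 microRNA genes, 173 lay inside that range, 6 above it and 117 below it. Of the 12 called higher, 11 were lowest on chronic Th2 array 3, the chronic array with the lowest olfactory receptor median. Of the same 12, 9 were highest on chronic Th2 array 1, the one with the highest median. The shares of all genes with these orders were not counted. The 10 known hairpins of the 12 had a median G and C content of 56.7%, against 47.3% over all 258. The part of the background level in these calls was not tested beyond 2 adjustments. With the olfactory receptor median of each array subtracted, the median of all genes moved to -0.37. Then 3 genes were called higher and 26 lower (9.8% of microRNA genes, against 18.1% of all genes). The olfactory receptor median as a covariate was an alternative chosen after the data were seen. With it 2 were called, Mir29a and Mir146, neither of them among the 13 (0.676%, against 2.01% of all genes). That covariate was highest on chronic Th2 arrays 1 and 2, so the fit can separate it only in part from the chronic Th2 group. A call lost in that fit therefore does not tell the 2 apart.

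The 3 Mir680 genes encode the same mature strand at different places in the genome, with hairpins that are 82.8% identical between Mir680-1 and Mir680-2 and 45.0% between Mir680-1 and Mir680-3, so probes of the first pair may read each other's RNA. Mir680-1 was at 10.87, 9.68 and 8.71 on the chronic Th2 arrays, 9.27, 8.02 and 7.96 on the acute Th2 arrays, and 7.70, 7.29 and 7.50 on the naive arrays. Mir680-2 was at 11.81, 10.86 and 9.81 on the chronic Th2 arrays, 10.34, 8.93 and 8.99 on the acute Th2 arrays, and 8.97, 8.41 and 8.83 on the naive arrays. For both genes all chronic Th2 arrays lay above all naive arrays, and acute Th2 array 1, which had the highest olfactory receptor median of its group, was also the highest acute array. Mir680-1 rose by 2.25 (SE 0.53, limma adjusted p = 0.0355) and Mir680-2 by 2.09 (SE 0.52, adjusted p = 0.045) in chronic Th2 cells against naive cells. Mir680-3, at 9.57, 9.10 and 9.09 on the chronic Th2 arrays, 8.85, 8.64 and 8.68 on the acute Th2 arrays, and 8.62, 8.64 and 8.78 on the naive arrays, rose by 0.58 (SE 0.14, adjusted p = 0.0382). Mir680-1 was called in 3 of the 9 fits that left out 1 array, and in neither of those without chronic Th2 array 1 or 2, and with the olfactory receptor median subtracted its difference was 1.84 (adjusted p = 0.0171). With that median as a covariate the difference was 0.59 for Mir680-1 (limma adjusted p = 0.667), 0.42 for Mir680-2 (adjusted p = 0.779) and 0.26 for Mir680-3 (adjusted p = 0.755).

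Mir297b was at 8.56, 7.87 and 7.59 on the chronic Th2 arrays, 7.41, 6.74 and 6.89 on the acute Th2 arrays, and 6.67, 6.67 and 6.92 on the naive arrays. The chronic Th2 arrays lay above all others, and the acute and naive arrays overlapped. It rose by 1.25 (SE 0.25, limma adjusted p = 0.0215), which was the smallest adjusted p of the microRNA genes in this comparison. Mir7b, which shares its seed with Mir7-1, was at 6.89, 6.87 and 6.60 on the chronic Th2 arrays, 6.37, 6.03 and 6.13 on the acute Th2 arrays, and 5.83, 6.18 and 6.25 on the naive arrays. It rose by 0.70 (SE 0.14, adjusted p = 0.0229), and only the chronic Th2 arrays passed the background level. With the olfactory receptor median subtracted the difference was 0.84 for Mir297b (limma adjusted p = 0.0163) and 0.29 for Mir7b (adjusted p = 0.141), and with it as a covariate 0.50 (adjusted p = 0.467) and 0.43 (adjusted p = 0.547). The other genes with the miR-7 seed, Mir7-1 (-0.36) and Mir7-2 (0.12), did not pass, and the difference between the 3 genes was not tested.

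The other 8 genes called higher differed by 0.38 to 0.60 in limma, with adjusted p-values of 0.0302 to 0.0459. They were Mir143 (0.60), Mir211 (0.53), Mir693 (0.46), Mir365-1 (0.46), Mir188 (0.45), Mir330 (0.42) and Mir194-2 (0.38), with Mir680-3 already described. Mir143 belongs to smooth muscle and Mir211 to pigment cells and brain. Mir143 was at 7.55, 7.35 and 7.27 on the chronic Th2 arrays, 7.09, 6.60 and 6.71 on the acute Th2 arrays, and 6.68, 6.71 and 6.996 on the naive arrays. Of the other-cell markers, the stromal gene Col1a1 was at 7.76, 7.67 and 7.65 on the chronic Th2 arrays, 7.71, 7.44 and 7.47 on the acute Th2 arrays, and 7.54, 7.48 and 7.59 on the naive arrays, with a chronic Th2 minus naive difference of 0.16 (adjusted p = 0.311). Mir365-1 and Mir188 stayed below background in every group. Leaving out chronic Th2 array 1 or chronic Th2 array 2 left 0 of the 296 called, against 14 without chronic Th2 array 3, 28 without naive array 1, and 2 to 11 without any of the other arrays.

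Mir701 was at 2.91, 2.96 and 2.81 on the chronic Th2 arrays, 3.08, 2.94 and 2.93 on the acute Th2 arrays, and 5.19, 4.30 and 3.54 on the naive arrays. Every value was below background, and the naive arrays lay above all Th2 arrays. In chronic Th2 cells it fell by 1.45 (SE 0.33, limma adjusted p = 0.0342). Ttc28, the gene that holds it, was at 7.48, 7.05 and 7.23 on the chronic Th2 arrays, 7.21, 7.11 and 7.003 on the acute Th2 arrays, and 9.01, 8.24 and 8.21 on the naive arrays. It was lower in both Th2 groups, by -1.23 in chronic Th2 cells (adjusted p = 0.00977) and -1.38 in acute Th2 cells (adjusted p = 0.00571), and like Mir701 it was highest on naive array 1. Without naive array 1, 28 microRNA genes were called in this comparison, 16 higher and 12 lower, which is 9.46% of them, against 17.2% of all genes in the same fit. The lower ones then included Mir1839 (-1.81), Mir15b (-1.52), Mir701 (-1.03), Mir6516 (-0.91), Mir142 (-0.81), Mir342 (-0.61), Mir568 (-0.45), Mir340 (-0.43) and Mir425 (-0.37). Of these, Mir1839, Mir15b, Mir701, Mir568, Mir340 and Mir425 have group means below background in every group.

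**Figure D4:**
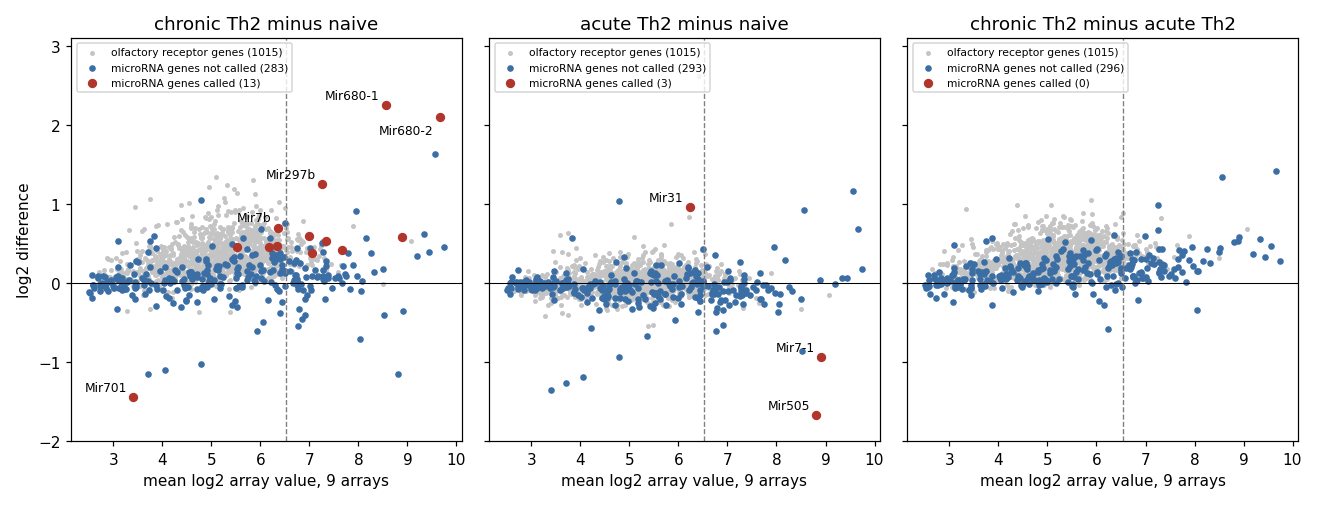
Log2 difference of each comparison against the mean log2 array value over 9 arrays. Grey points are 1015 olfactory receptor genes, blue points microRNA genes not called and red points microRNA genes called by limma at an adjusted p below 0.05 (13, 3 and 0). The grey cloud is centred at 0.34, 0.01 and 0.33 in the 3 panels, and the dashed line marks the background level of 6.53.

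Chronic against acute Th2 cells asked what changes as the inflammation persists. No microRNA gene was called, at a smallest limma adjusted p of 0.322, against 0.0301% of all genes (6 of 19937), with 0.015% called higher and 0.015% lower. At an unadjusted p below 0.05 there were 61 microRNA genes (20.6%), 60 higher and 1 lower, against 14.9% of all genes, 10.1% higher and 4.8% lower, and all 408 olfactory receptor genes past that p were higher too. The median difference was 0.12 over microRNA genes, 0.33 over olfactory receptor genes and 0.04 over all genes. The arrays did not overlap for 58 microRNA genes, 53 higher and 5 lower, which is 19.6%, against 22.7% of all genes, 11.8% higher and 10.8% lower. The largest upward differences were those of Mir680-2 (1.41), Mir680-1 (1.34), Mir297b (0.99), Mir679 (0.67) and Mir7b (0.61), and the largest downward ones those of Mir31 (-0.58), Mir6516 (-0.34), Mir421 (-0.28), Mir425 (-0.28) and Mir340 (-0.24). None of these 10 passed. Of the genes known in T cells, Mir155 differed by 0.47 (adjusted p = 0.77), Mir142 by 0.45, Mir17 by 0.33, Mir150 by 0.15 and Mir181a-1 by 0.11. Other settings gave other counts: limma with array weights called 91, 86 higher and 5 lower, which is 30.7% of microRNA genes against 33.7% of all genes. The fit without naive array 1 and chronic Th2 array 3 called 16, all higher, which is 5.41% against 5.45% of all genes.

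The hosts of microRNA genes were set beside them. A strand was known for 271 of the 296, and only these could be placed. By RefSeq spans on the same strand, 131 of the 271 lay inside another gene. For 96 that gene was measured, giving 97 pairs with 76 hosts. The host was called in 14 pairs in chronic Th2 minus naive and in 8 in acute Th2 minus naive. Of all genes, 7.88% and 5.87% were called. In each comparison 5 of these pairs share the host Clcn5, so the pairs are not separate hosts. Host and microRNA gene were both called in 2 pairs and 0 pairs, respectively. Across the 97 pairs Pearson's r of the differences was 0.57 for chronic Th2 minus naive and 0.47 for acute Th2 minus naive. For chronic Th2 minus acute Th2, whose differences use no naive array, it was 0.16. This is a description only, since several pairs share a host, hairpin probes can read the host's unspliced RNA, and all pairs share the arrays. In 22 pairs both genes lay above background. Among these, r was 0.51 for chronic Th2 minus naive, 0.41 for acute Th2 minus naive and 0.45 for chronic Th2 minus acute Th2. Why the values differ between the 2 sets of pairs was not tested.

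The largest host difference belonged to Clcn5, a chloride and proton exchanger gene that holds Mir188, Mir362, Mir500, Mir501 and Mir532. Clcn5 was at 8.29, 8.51 and 8.55 on the chronic Th2 arrays, 8.21, 8.70 and 8.64 on the acute Th2 arrays, and 6.56, 6.83 and 6.79 on the naive arrays. It rose by 1.72 in chronic Th2 cells (SE 0.15, limma adjusted p = 0.000202) and by 1.79 in acute Th2 cells (SE 0.15, adjusted p = 0.000163). Its 5 microRNA genes differed by 0.32 to 0.76 in chronic Th2 cells and by 0.02 to 0.42 in acute Th2 cells, all upward and all less than the host. Mir188 alone of them was called, in chronic Th2 cells, at 6.48, 6.49 and 6.34 on the chronic Th2 arrays, 6.16, 5.98 and 6.16 on the acute Th2 arrays, and 6.11, 6.01 and 5.83 on the naive arrays. Mir362 had the largest difference, 0.76 (adjusted p = 0.0651), and was the 1 gene of the 5 above background in any group.

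The remaining pairs described here had calls in 1 of the 2 genes. Pde2a, a cyclic nucleotide phosphodiesterase gene, was lower by -1.21 in chronic Th2 cells (limma adjusted p = 0.012) and -1.11 in acute Th2 cells (adjusted p = 0.0195), while its Mir139 differed by 0.14 and -0.11 without passing. Mir139 was at 8.53, 8.41 and 8.43 on the chronic Th2 arrays, 8.31, 8.17 and 8.14 on the acute Th2 arrays, and 8.45, 8.17 and 8.31 on the naive arrays. Mir330 rose in chronic Th2 cells (0.42), with its host Eml2 at 0.35 (adjusted p = 0.0676), and Mir693 rose (0.46), with its host Xpo5, the gene of Exportin 5, at -0.34 (adjusted p = 0.361).

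**Figure D5:**
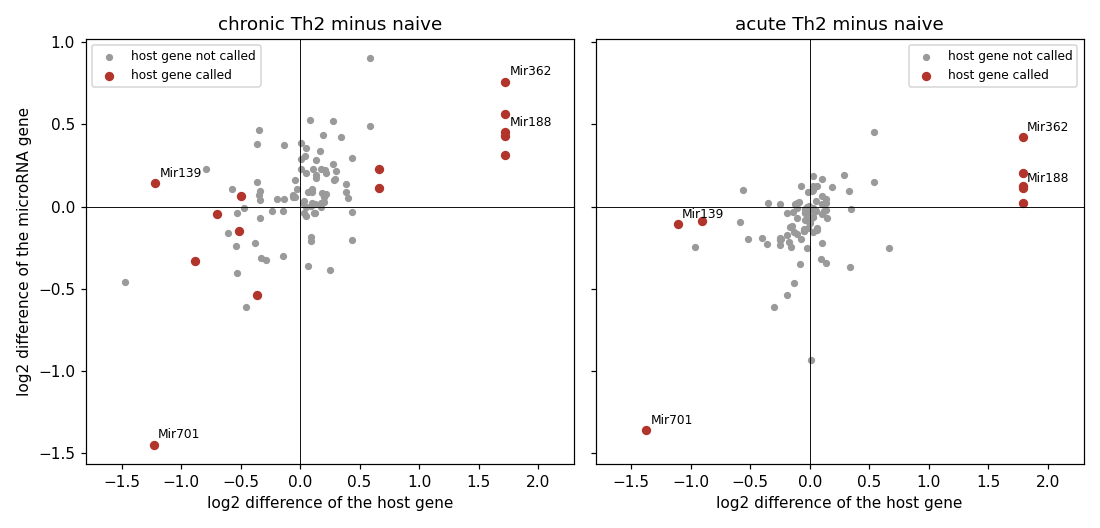
Each point is 1 of 97 pairs of a microRNA gene and the gene that holds it on the same strand, with the host's log2 difference on the x axis and the microRNA gene's on the y axis, for chronic Th2 minus naive (left) and acute Th2 minus naive (right). Red points are pairs whose host was called by limma (14 and 8); the column of 5 red points at the right of each panel is Clcn5, with host differences of 1.72 and 1.79, and Mir701 lies at the lower left.

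The genes that make and use microRNAs were nearly all expressed. Of 22 measured, 19 lay above background in at least 1 group, compared with 53.1% of all genes. Their median difference was -0.35 in chronic Th2 cells and -0.17 in acute Th2 cells, against 0.04 and -0.03 over all genes. In chronic Th2 cells 2 of the 22 were called lower and none higher, against 4.2% of all genes called lower and 3.68% higher. Dicer1 fell by 0.48 (SE 0.10, limma adjusted p = 0.024) and Ago1, an Argonaute gene, fell by 0.57 (SE 0.13, adjusted p = 0.0351). Whether these 2 calls hold under the alternative settings was not tested. Dicer1 was at 8.52, 8.73 and 8.62 on the chronic Th2 arrays, 8.66, 8.87 and 8.86 on the acute Th2 arrays, and 9.21, 9.12 and 8.98 on the naive arrays, with no overlap between Th2 and naive arrays. None of the 22 was called in acute Th2 cells, where Dicer1 differed by -0.30 (adjusted p = 0.151). Drosha (-0.35) and Dgcr8 (-0.35) differed downward in chronic Th2 cells without passing.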

How the data were processed

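RNA of 9 samples was hybridised to Affymetrix Mouse Gene 1.0 ST arrays. The deposited values are log2 intensities per probe set, made by the authors with RMA, a method that corrects background, quantile-normalizes and summarises probes, per the submitters' processing notes, which also name limma. No versions, genome build or annotation release are given in the sources used here. Of 34760 probe sets, 21640 named 1 gene in GEO's platform annotation, 1321 named several and 11799 none; the 37 that name a microRNA gene together with other genes were not used. The brightest probe set was kept for each gene, which mattered for 1 microRNA gene, Mir713. Differences were fitted with limma 3.58.1 in R 4.3.3 (lmFit and eBayes) on all 19937 genes and 9 arrays, group as the single term, two-sided, with Benjamini-Hochberg adjustment and a threshold of 0.05. The script was tested on simulated data. With 3 arrays a group an exact permutation test cannot go below a p of 0.1, and array number limits the precision. Separate mice are not stated beyond the titles' wording, so p-values measure only the spread between these samples.

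The members, lists, named genes and tests were chosen with earlier results of these data known. Named were all called microRNA genes, the 8 brightest, the 5 largest upward and downward differences of each comparison, T cell and Mir17 cluster genes above background, the 2 brightest of other lists, and hosts. Mir361, Mir363, Mirlet7d, Mir687, Mir181b-1, Mir139, Mir379, Mir126a, Mir451a, Mir144 and the Clcn5 genes other than Mir188 were named after their values were seen. Alternatives were a replicate block, leaving out arrays, array weights, 6-array fits, other scalings, a filter on dim genes, probe set means and a trended robust eBayes. RefSeq tables of GRCm38.p6, matched by gene ID for all 296, gave sequences and hosts.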

Additional observations from a re-analysis of the deposited data

How the results depend on the processing

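The count of called microRNA genes was unstable, while the call of Mir7-1 in acute Th2 minus naive held under every alternative. For chronic Th2 minus naive (13 called), leaving out 1 array gave 0 to 28, leaving out naive 1 with chronic Th2 3 gave 43 but naive 1 with chronic Th2 1 gave 9, array weights 47, the 6-array fit 0, subtracting each array's olfactory receptor median 29, and that median as a covariate 2. For acute Th2 minus naive (3 called), leaving out 1 array gave 1 to 17, naive 1 with chronic Th2 3 left out 16, naive 1 with chronic Th2 1 left out 14, array weights 33 and the 6-array fit 1. For chronic Th2 minus acute Th2 (0 called), leaving out naive 1 with chronic Th2 3 gave 16, all higher, and array weights 91. The covariate and the fits without naive 1 and chronic Th2 1 were chosen after seeing the data, and the causes of these shifts were not tested. Subtracting the olfactory receptor median moved the median of all genes to -0.37 in chronic Th2 minus naive and to -0.33 in chronic Th2 minus acute Th2, turned the split of calls in chronic Th2 minus naive into 3 higher and 26 lower, and reversed Mir194-2 to -0.0264 (limma adjusted p = 0.8775). Deviations of same-numbered arrays correlated at -0.0855 to 0.572, and in no comparison were all 3 correlations over 0.1, so the numbers were treated as shared without pairing the arrays; with the replicate block 12 microRNA genes were called in chronic Th2 minus naive (8 of the 13 among them, without Mir143, Mir194-2, Mir211, Mir330 and Mir693, whose adjusted p-values were 0.0508 to 0.0656), 5 in acute Th2 minus naive and 0 in chronic Th2 minus acute Th2. With the 99th percentile of olfactory receptor genes (7.25) as the background level, 51 microRNA genes lay above it in chronic Th2 cells, 36 in acute Th2 cells and 40 in naive cells, and with the 95th percentile of vomeronasal receptor genes (5.74) the counts were 129, 119 and 122.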
